A study of Mus musculus with 4 samples.

Results

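Complement is a set of plasma and membrane proteins in which each protease cuts and activates the next. The classical pathway starts with C1q, C1r and C1s, which cleave C4 and C2, while the alternative pathway uses factor B and factor D, and all routes meet at C3 before the terminal proteins insert into membranes. The liver makes most of the circulating protein, and fibroblasts and macrophages make several components locally.

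The genes described here are 7 complement genes that fibroblasts are known to express: C1ra, C4b, C3, Cfb, Cfd, C7 and Serping1. They were taken as the spots whose transcript accession maps to these symbols, which gave 7 of the 22911 genes named on the array and 11 of its 59305 spots that are not controls. No measured value was used to choose them, although earlier results of these data were known.

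The study asked how hosts lacking Sipa1, a gene for a protein that switches off the small GTPase Rap, respond to leukemia cells. Blood progenitors from Wt donors carrying Bcr-abl and GFP were placed in Matrigel under the skin of C57BL/6Ncr mice aged 8 weeks, at 15000 cells per mouse, and tumors were taken on day 12. The hosts were 5 Wt and 5 Sipa1 KO mice, and whether their tumors were pooled is not stated in the sources used here. Mesenchymal stroma cells (MSCs) were sorted as GFP, CD45, Ter119 and CD31 negative, and CD8 T cells as GFP negative and positive for TCRb and CD8. Host cells were therefore Wt or Sipa1 KO, while the injected leukemia cells were of Wt origin, and both gates took GFP negative cells. How completely the gates removed leukemia cells was not tested. RNA of each population was labelled with Cy3 and read on 1 Agilent array, so there were 4 arrays for 4 conditions, all on 1 slide. No difference below has a replicate check, and the number of arrays limits the precision.

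A level is the log2 of a spot's processed signal minus the 75th percentile of the same array, so 0 marks that percentile. The 75th percentile was 18.0 times the median local background on the Wt CD8 T cell array, 16.4 times on the KO CD8 T cell array, 19.7 times on the Wt MSC array and 19.1 times on the KO MSC array. Probes printed on 10 spots had a median SD of 0.040 to 0.045 log2 units within an array, which measures spot noise and not variation between mice. A gene's log2 ratio is the mean over its probes that passed the scanner's flags on both arrays compared. Differences are taken across arrays for the same probe. Where a list's brightest gene or its summed level is given, it describes signal on that array and does not rank genes by transcript abundance, since probes differ in affinity.

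Sipa1 itself was examined first. Its first probe (A_55_P2133840) had levels of 5.40 in Wt and 3.73 in KO CD8 T cells, and 5.03 in Wt and 3.78 in KO MSCs. Its second probe (A_51_P191331) had levels of 3.43 in Wt and 1.39 in KO CD8 T cells, and 3.05 in Wt and 1.46 in KO MSCs. Both probes were lower on each KO array and stayed well above background there, and whether they lie inside the deleted part of the gene was not tested.

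Cfd gave only bounds, and the other 6 members gave a ratio in every comparison. On the MSC arrays the measured members were higher in Sipa1 KO than in Wt tumors by a median log2 ratio of 1.15, against 0.04 over all 15283 genes measured. At least 2-fold higher were 4 of 6, beside 19.3% of all genes. On the CD8 T cell arrays their median was 1.29 against -0.02 over 14323 genes, with 4 of 6 at least 2-fold higher, beside 2.66% of all genes. The share of all genes at least 2-fold lower there was 1.4%, and no measured member was among them. MSCs exceeded CD8 T cells by a median of 4.21 in Wt tumors and 4.47 in KO tumors. In these cell type comparisons 6 of 6 measured members were at least 2-fold higher, beside 17.3% of all genes in Wt and 21.9% in KO tumors. These counts depend in part on the scaling: with normexp 3 of 6 passed 2-fold on the MSC pair and 5 of 6 in each cell type comparison. Each array enters a genotype and a cell type comparison, so these comparisons share arrays. In sorted bulk RNA, fewer cells of a type and less RNA per cell cannot be told apart.

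**Figure D1:**
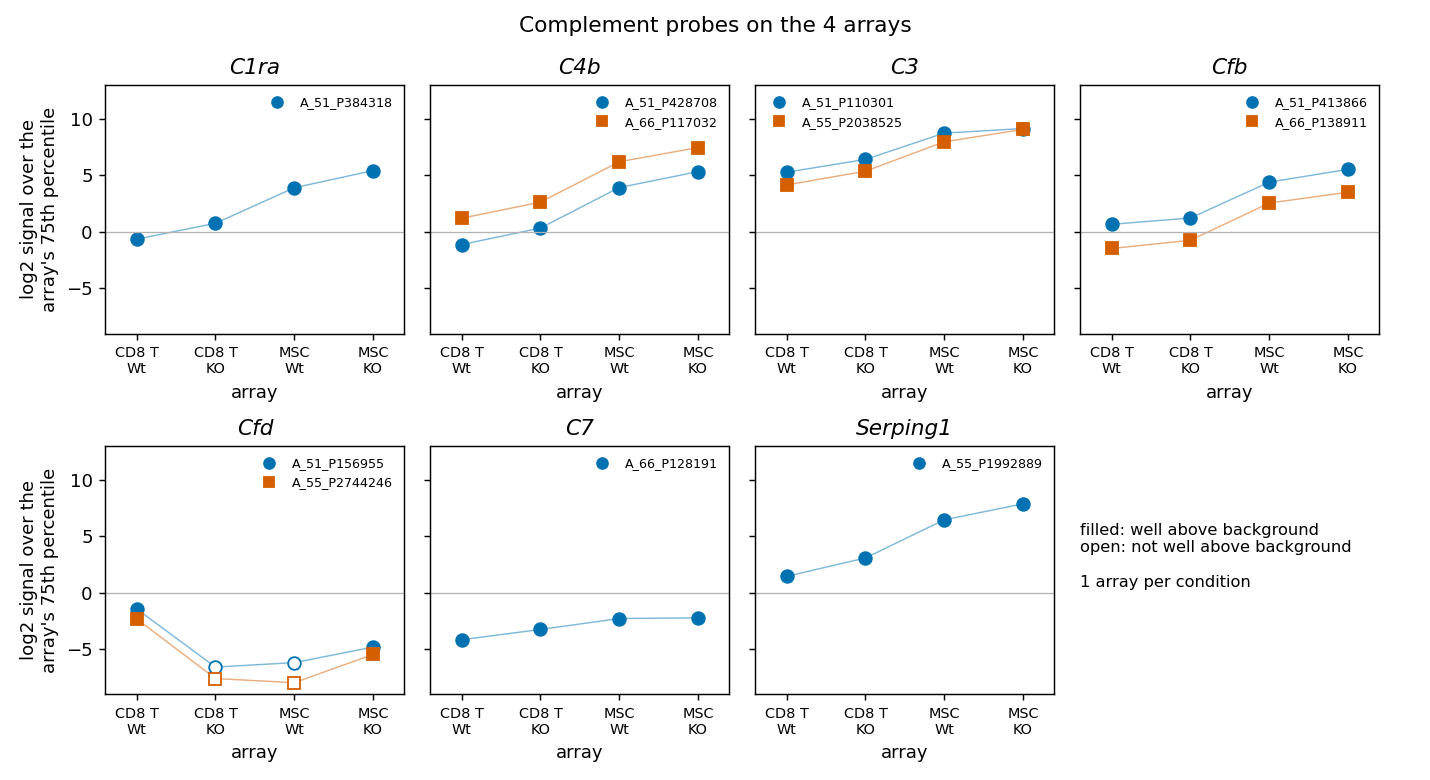
Log2 level over the array's 75th percentile (vertical axis) for the 11 member probes on each of the 4 arrays (horizontal axis), with filled points well above background and open points not. Every probe outside Cfd is highest on the MSC arrays, and both Cfd probes are open on the KO CD8 T cell and Wt MSC arrays.

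In the classical pathway, C1ra encodes the protease C1r, which activates C1s. The single C1ra probe had levels of -0.64 in Wt CD8 T cells, 0.76 in KO CD8 T cells, 3.90 in Wt MSCs and 5.42 in KO MSCs. The MSC arrays were the high ones, and in each cell type the KO array was above the Wt array. The KO over Wt log2 ratio was 1.52 in MSCs (2.86-fold) and 1.40 in CD8 T cells (2.64-fold). MSCs exceeded CD8 T cells by 4.54 in Wt and 4.66 in KO tumors.

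C4b encodes complement C4, the substrate of C1s. Its first probe (A_66_P117032) had levels of 1.21 in Wt CD8 T cells, 2.63 in KO CD8 T cells, 6.20 in Wt MSCs and 7.46 in KO MSCs. Its second probe (A_51_P428708) had levels of -1.12, 0.34, 3.92 and 5.33 in the same order. The order of the arrays was the same for both probes. The second probe was flagged for uneven local background on the KO MSC array and was left out of the comparisons with that array. The log2 ratio of KO over Wt was 1.26 in MSCs (2.39-fold) and 1.44 in CD8 T cells (2.71-fold), and the second probe alone would give 1.41 in MSCs. MSCs exceeded CD8 T cells by 5.02 in Wt and 4.83 in KO tumors.

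C3 is the protein on which the activation routes meet. Its first probe (A_51_P110301) had levels of 5.28 in Wt CD8 T cells, 6.41 in KO CD8 T cells, 8.74 in Wt MSCs and 9.14 in KO MSCs. Its second probe (A_55_P2038525) had levels of 4.15, 5.37, 7.97 and 9.06 in the same order. Both probes rank the arrays alike, but their KO minus Wt differences in MSCs were 0.40 and 1.09, so the probes disagree on whether C3 passed 2-fold. The C3 ratio over both probes was 0.75 in MSCs (1.68-fold) and 1.17 in CD8 T cells (2.25-fold). MSCs exceeded CD8 T cells by 3.64 in Wt and 3.21 in KO tumors.

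Cfb encodes factor B, the protease of the alternative pathway C3 convertase. Its first probe (A_51_P413866) had levels of 0.67 in Wt CD8 T cells, 1.23 in KO CD8 T cells, 4.40 in Wt MSCs and 5.53 in KO MSCs. Its second probe (A_66_P138911) had levels of -1.47, -0.74, 2.55 and 3.51 in the same order. Again the KO array was the higher in each cell type, by 1.13 and 0.96 in MSCs. The Cfb ratio was 1.04 in MSCs (2.06-fold), near the 2-fold line and below it with the median shift (0.91) and normexp (0.99), and 0.65 in CD8 T cells (1.57-fold). MSCs exceeded CD8 T cells by 3.88 in Wt and 4.27 in KO tumors.

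Cfd encodes factor D, which cleaves factor B, and is abundant in fat cells. Its first probe (A_55_P2744246) had a level of -2.33 in Wt CD8 T cells and -5.47 in KO MSCs, and was not well above background in KO CD8 T cells or Wt MSCs. Its second probe (A_51_P156955) had a level of -1.45 in Wt CD8 T cells and -4.82 in KO MSCs, with the same arrays not well above background. Cfd thus left the order of the other members, with its highest level on the Wt CD8 T cell array. The second probe carried the flag for uneven local background on that array. Where a probe was not well above background on an array, a bound was taken against the higher of its own signal there and the lowest signal well above background on that array. By these bounds Cfd was at least 8.94-fold lower in KO than in Wt CD8 T cells by the first probe and at least 16.5-fold lower by the second. In MSCs it was at least 1.31-fold higher in KO than in Wt by the first probe and at least 2.06-fold higher by the second. In Wt tumors, MSCs were at least 11.6-fold below CD8 T cells by the first probe and at least 21.3-fold below by the second. In KO tumors the direction was the opposite by the second probe, with MSCs at least 1.59-fold above CD8 T cells. The first probe put MSCs at least 1.01-fold above, a log2 bound of 0.02. The median shift moves this comparison by -0.22, so the first bound sets no direction under it.

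C7 joins the terminal complex that inserts into membranes. Its single probe had levels of -4.16 in Wt CD8 T cells, -3.26 in KO CD8 T cells, -2.29 in Wt MSCs and -2.23 in KO MSCs. The MSC arrays were again the higher ones, and the MSC levels differed by 0.06 between genotypes (1.04-fold). That difference was within the spot noise and turned sign with the scaling, to -0.08 with a median shift, -0.01 with quantile normalization and -0.05 with normexp background correction, while the series matrix gave 0.27. The C7 ratio in CD8 T cells was 0.89 (1.86-fold), or 1.03 with the series matrix, and MSCs exceeded CD8 T cells by 1.86 in Wt and 1.03 in KO tumors. The series matrix raised these cell type differences to 2.32 and 1.56. With normexp the CD8 T cell ratio became 0.26 and the cell type differences 0.72 and 0.40, so neither cell type difference reached 2-fold. The KO cell type difference was also below 2-fold with the median shift, at 0.81, and with quantile normalization, at 0.89.

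Serping1 encodes C1 inhibitor, which blocks C1r and C1s. Its single probe had levels of 1.44 in Wt CD8 T cells, 3.07 in KO CD8 T cells, 6.44 in Wt MSCs and 7.85 in KO MSCs. The arrays fell in the same order as for C1ra. KO exceeded Wt by 1.42 in MSCs (2.67-fold), and the CD8 T cell ratio was 1.63. MSCs exceeded CD8 T cells by 5.00 in Wt and 4.78 in KO tumors.

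Beyond the members, 52 further complement genes are on the array. In MSCs 37 were measured, with a median log2 ratio of 1.14. Of these, 21 lay past 2-fold toward KO and 3 past 2-fold toward Wt, and with normexp the first count was 14. Among all 15283 genes measured in MSCs, 2954 were at least 2-fold higher in KO and 1734 at least 2-fold lower. These all-gene counts stand beside each MSC list count below. The CD8 T cell arrays measured 31, with a median of 0.23, and the counts were 6 toward KO and 1 toward Wt. Among all 14323 genes measured there, 381 were at least 2-fold higher in KO and 201 at least 2-fold lower. Each CD8 T cell list count below stands beside these.

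The classical pathway list, C1ra and C4b included, had 10 of 10 genes at least 2-fold higher in KO MSCs (median 1.46) and 7 of 10 in KO CD8 T cells (median 1.42). The MSC count was 9 with the median shift, without C1qb, and 8 with normexp, without C1qa and C1qb. The CD8 T cell count was 5 with normexp, without C1rb and C4a, and the median there was 1.01. C2, the partner that C1s cleaves with C4, had a log2 ratio of 1.90 on the MSC pair and 1.84 on the CD8 T cell pair. The C1s genes C1s1 and C1s2 had ratios of 1.64 and 1.56 in MSCs, and 1.54 and 1.56 in CD8 T cells. C1rb, the paralog of C1ra, had ratios of 1.60 and 1.30, and C4a, the paralog of C4b, had 1.34 and 1.57. Because paralogs are alike in sequence and probe sequences were not used here, signal shared between them was not tested. C1qa, C1qb and C1qc, the chains of C1q, made up the other 3 genes. Their ratios in MSCs were 1.26, 1.04 and 1.40, and in CD8 T cells 0.23, 0.29 and 0.51. Unlike the 6 measured members, the C1q genes were lower in MSCs than in CD8 T cells in Wt tumors, by log2 ratios of -2.20, -1.87 and -1.92.

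Macrophages are a main source of C1q. Of the macrophage markers, 7 of 7 measured were higher in KO MSCs, with a median of 0.99 and 3 at least 2-fold higher, a count that was 1 with normexp and 5 with the series matrix. The median on the CD8 T cell arrays was 0.09, which became -0.06 with a median shift. The summed level of the list, in units of the 75th percentile, was 16.7 in Wt and 15.5 in KO CD8 T cells, and 6.73 in Wt and 10.5 in KO MSCs. Its brightest gene was Csf1r in CD8 T cells and Lyz2 in MSCs, and Cd163 was not well above background in Wt MSCs. The part of these markers in the C1q values was not tested.

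Among the lectin pathway genes, 4 of 9 were measured in MSCs. Colec11, a collectin, was the 1 gene at least 2-fold higher in KO MSCs, with a ratio of 1.34, and with normexp the count was 0. Apart from C3, Cfb and Cfd, the alternative pathway list holds Cfp, which encodes the stabilizing protein properdin and gave 0.18 for MSCs and -0.30 for CD8 T cells. Of 7 terminal pathway genes, 3 were measured in MSCs. Hc, the gene of complement C5, had a ratio of 2.63 in MSCs, from a level of -4.20 in Wt to -1.56 in KO. The MSC ratio of C8g was 0.99. By its bound Hc was at least 1.07-fold lower in KO CD8 T cells, a log2 bound of -0.10. The series matrix moves this comparison by 0.13, so the Hc bound sets no direction with it.

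Soluble regulators, Serping1 included, were at least 2-fold higher in KO MSCs for 7 of 8 measured genes and at least 2-fold lower for 1. Cfi, the protease that cleaves C3b, had a ratio of 1.57 in MSCs and was at least 2.22-fold higher in KO CD8 T cells by its bound. Susd4, an inhibitor of C3 convertases, had levels of -4.52 in Wt MSCs and 0.40 in KO MSCs, a ratio of 4.92. This rests on 1 of its probes (A_55_P1954393), and the other was not well above background on any array. The Susd4 ratio in CD8 T cells was -0.46. Clu, which encodes clusterin, gave 1.16 for MSCs and 1.15 for CD8 T cells, while Vtn, the vitronectin gene, had 1.14 in MSCs and was at least 2.41-fold higher in KO CD8 T cells. Cpb2, a carboxypeptidase that inactivates anaphylatoxins, had -1.39 in MSCs.

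Membrane regulators protect the cells that carry them. In MSCs 5 of 7 were at least 2-fold higher in KO, with Cd59a at 1.67, Csmd1 at 1.27, Cd59b at 1.26, Cd55 at 1.23 and Cd55b at 1.04. The Cd55b probes gave 1.23 and 0.86, the second from dim levels of -4.83 in Wt and -3.96 in KO MSCs. The median shift moves this comparison by -0.14, which puts Cd55b below 2-fold. Signal shared between the paralogs Cd55 and Cd55b, or Cd59a and Cd59b, was not tested. In CD8 T cells 4 were measured, none at least 2-fold in either direction, with ratios between -0.21 and -0.14. Outside these 4, Cd59a was well above background in KO CD8 T cells by 1 of its probes and not in Wt, which puts it at least 1.63-fold higher in KO. Whether the cell types differ was not tested, with 1 array each. The MSC count of membrane regulators was 2 with normexp. Of the 8 complement receptor genes with a ratio in MSCs, 0 were at least 2-fold higher in KO and 2 at least 2-fold lower. Outside this count, C3ar1, the C3a receptor, was not well above background in Wt MSCs and was at least 2.16-fold higher in KO MSCs. The Itgam probes, for a chain of complement receptor CR3, disagreed, with 1.24 and -0.93, and their mean was 0.15. The first was bright, with levels of 3.59 in Wt and 4.83 in KO MSCs, and the second dim, at -4.17 and -5.10. By the bright probe alone, Itgam would be past 2-fold toward KO. Cd93, which B-cell precursors and endothelial cells also express, had levels of 4.80 in Wt MSCs and 0.59 in KO MSCs, a ratio of -4.21. C1qbp, which encodes a C1q-binding protein found mainly in mitochondria, had -1.10. C5ar1, the C5a receptor of myeloid cells, had -1.77 in CD8 T cells. The median of the receptors was -0.18 on the MSC pair of arrays and -0.09 on the other pair, and with the series matrix values these became 0.02 and 0.04.

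**Figure D2:**
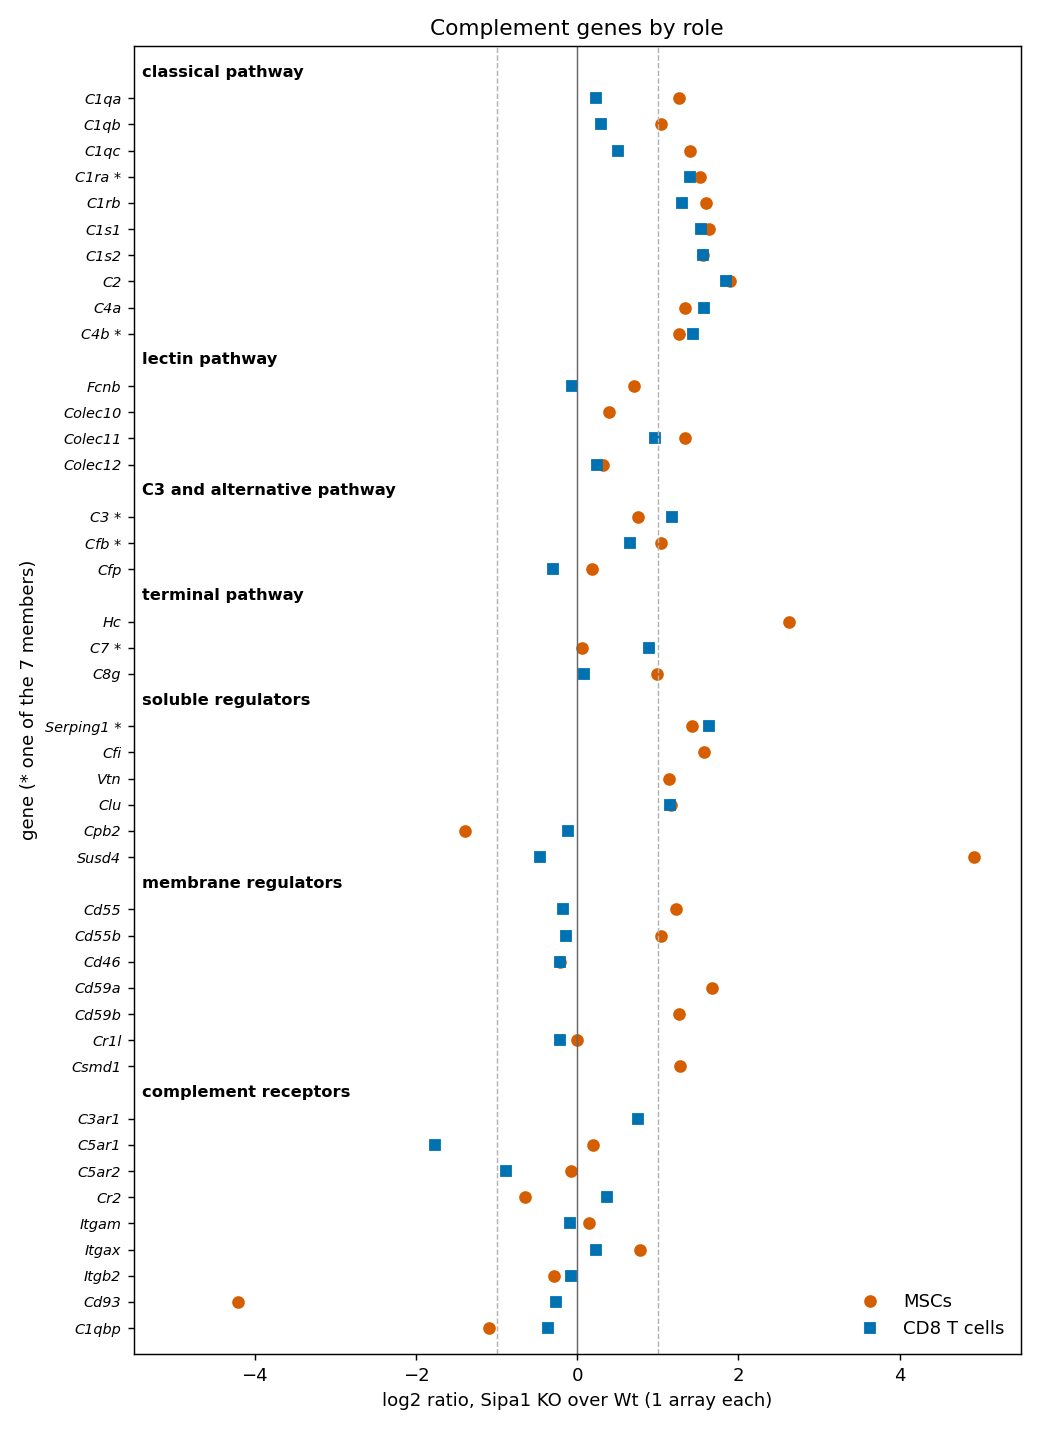
Log2 ratio of Sipa1 KO over Wt (horizontal axis, 1 array each) for measured complement genes (vertical axis), grouped by role, with circles for MSCs, squares for CD8 T cells and dashed lines at 2-fold. The 10 classical pathway circles lie right of the 2-fold line. Of the receptors, C3ar1 is not drawn for MSCs because it has only a bound, and Itgam is drawn at the mean of probes that disagree. The C1qb circle at 1.04 falls below the line with the median shift, and those of C1qa and C1qb do with normexp. The C7 circle at 0.06 changes side of 0 with the scaling.

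Fibroblast markers were higher on the same arrays as the members. In MSCs 10 of 10 measured were higher in KO, 6 of them at least 2-fold, with a median of 1.35. In CD8 T cells 11 of 12 were higher, 10 of them at least 2-fold, with a median of 1.63. The summed level of the list was 211 in Wt and 307 in KO CD8 T cells, and 1080 in Wt and 1870 in KO MSCs. Col1a2, Dcn and Col3a1, genes of the fibroblast matrix, had ratios of 0.35, 0.86 and 0.38 in MSCs, and 1.54, 1.68 and 1.74 in CD8 T cells. All 12 markers were well above background on each array, the CD8 T cell arrays included, and the brightest gene there was Thy1, which T cells also express. Thy1 made up 78.6% of the sum in Wt and 57.4% in KO CD8 T cells and had a ratio of 0.09 between them, so those sums understate the difference in the rest of the list. The part of fibroblast RNA in the members' values on either pair of arrays was not tested.

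The sort labels were set against markers. T cell genes were 6 of 6 at least 2-fold lower in MSCs than in CD8 T cells in Wt tumors (median -7.71) and 7 of 7 in KO tumors (median -7.47). Over all genes measured, 1820 of 14210 were at least 2-fold lower in Wt tumors and 2663 of 14279 in KO tumors. The summed level of the T cell genes was 495 in Wt and 497 in KO CD8 T cells. It was 3.67 in Wt and 2.87 in KO MSCs, where Lck was the brightest. The MSC sums hide genes that went both ways: Cd3g, Cd8b1, Cd3d and Cd3e had KO over Wt ratios of 1.43, 1.31, 1.10 and 0.66, and Lck and Zap70 had -1.07 and -1.59, with a median of 0.88 over the 6 measured. With normexp 0 of them passed 2-fold toward KO and 1 toward Wt. By the bound of 1 of its probes Cd8a was at least 3.23-fold higher in KO MSCs, and its other probe was not well above background on either MSC array. Trat1 was not well above background on either MSC array, nor Cd8a in Wt MSCs. Although the MSC gate took CD45 negative cells, 8 of 8 common leukocyte genes were well above background on both MSC arrays, with a summed level of 175 in Wt and 51.6 in KO. The sums in CD8 T cells were 653 and 627, with Cd52 the brightest. Coro1a, Cd52 and Rac2 had KO over Wt ratios of -2.55, -0.82 and -2.21 in MSCs.

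B-lineage genes moved against the members on the MSC arrays. All 8 were at least 2-fold lower in KO MSCs (median -4.19), and their summed level was 657 in Wt and 37.5 in KO MSCs. Vpreb1, Vpreb3 and Cd79b had ratios of -4.12, -3.99 and -4.16. On the CD8 T cell arrays 3 of 8 were at least 2-fold lower, and the sums were 28.4 and 20.6, with Cd79b the brightest. The Wt MSC array thus held far more B-lineage signal than the KO MSC array, and the part of this difference in the members' MSC ratios was not tested. Whether injected leukemia cells have a part in the B-lineage signal was not tested either.

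Some granulocyte genes were lower with Cfd on the KO CD8 T cell array. Of 7 measured, 4 were at least 2-fold lower in KO CD8 T cells (median -1.05), or 2 with the series matrix, and the summed level was 609 in Wt and 326 in KO. In MSCs the sums were 683 in Wt and 765 in KO, and S100a9 was the brightest gene of the list on each array. S100a9, S100a8 and Camp had ratios of -1.05, -1.48 and -1.12 in CD8 T cells and 0.09, 0.18 and 0.51 in MSCs. Ngp had -1.27 in CD8 T cells, while Elane, Mpo and Csf3r had 0.04, 0.16 and -0.12 there. In MSCs 2 of 7 were at least 2-fold higher in KO, Mpo at 2.13 and Elane at 1.57. Adipocyte markers had a median of 1.00 for MSCs and 0.17 for CD8 T cells over 5 measured genes. Their summed level was 1.21 in Wt and 2.03 in KO CD8 T cells, and 3.25 in Wt and 15.9 in KO MSCs, with Fabp4 the brightest in CD8 T cells and Lpl in MSCs. Between KO and Wt CD8 T cells the list was mixed. Lpl, Fabp4 and Lep had ratios of 1.35, 0.89 and 0.17, opposite in direction to Cfd. Retn and Plin4 had -1.34 and -0.34, and by bounds Cidec was at least 1.75-fold lower and Adipoq at least 1.42-fold lower, in the direction of Cfd. With normexp neither Lpl nor Retn reached 2-fold there. The ratios of Lpl, Fabp4, Plin4, Retn and Lep in MSCs were 2.52, 1.42, 1.00, 0.68 and -0.06, and Plin1 and Adipoq were at least 4.46-fold and 4.20-fold higher in KO. Plin1 was not well above background in CD8 T cells of either genotype or in Wt MSCs, and Cidec not in KO CD8 T cells or on either MSC array. The part of these cells in the Cfd values was not tested.

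Of 8 hepatocyte genes, Alb, Apoa1 and Fgb were not well above background on any array. Ttr was well above background by 1 of its probes in KO MSCs, at least 5.89-fold above Wt MSCs, and Ahsg, Serpina1a, Tat and Apoa2 were well above background on both MSC arrays. Serpina1a, Tat and Apoa2 were also above it on both CD8 T cell arrays, and the list's summed level was between 1.02 and 1.77, with Apoa2 the brightest gene. The hepatocyte genes measured had a median of 0.43 for MSCs and 0.35 for CD8 T cells. Pericyte and smooth muscle genes had a median of 1.15 in MSCs, with 5 of 8 at least 2-fold higher, and summed levels of 15.6 in Wt and 22.4 in KO MSCs with Acta2 the brightest. Their median in CD8 T cells was -0.03, which became 0.10 with the series matrix values, but 2 of 6 were at least 2-fold lower in KO, Rgs5 at -1.64 and Kcnj8 at -1.04, beside 1.4% of all genes. That count was 1 with normexp, quantile normalization and the series matrix. Endothelial genes had medians of 0.69 for MSCs and -0.18 for CD8 T cells, with summed levels between 1.30 and 3.94. They went both ways in MSCs, with Kdr, Tek and Robo4 at 1.71, 1.53 and 1.44, Vwf at 0.69, and Pecam1, Emcn and Cdh5 at -1.49, -0.63 and -0.03. With normexp 1 of these passed 2-fold toward KO and 0 toward Wt.

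**Figure D3:**
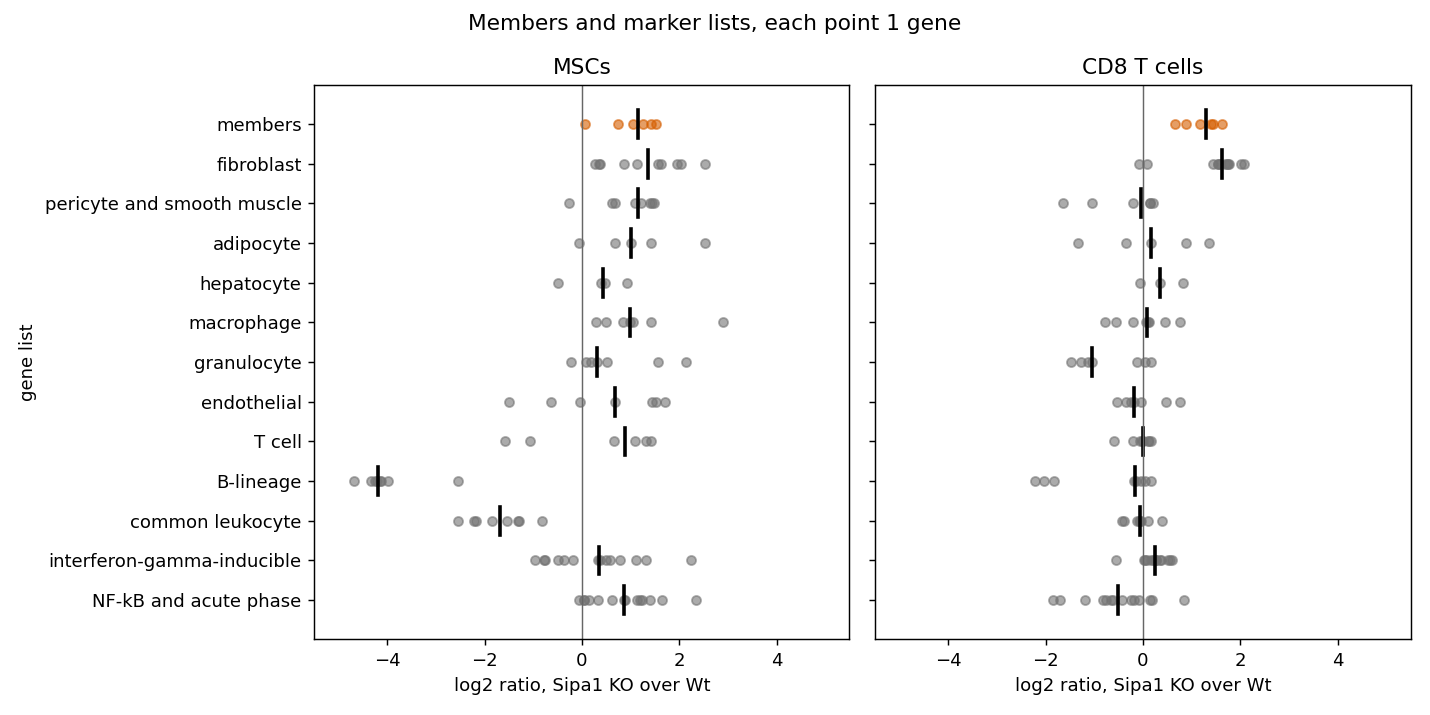
Log2 ratio of Sipa1 KO over Wt (horizontal axis) for each measured gene of the members and of each marker list (vertical axis), in MSCs on the left and CD8 T cells on the right, with a bar at each median. The members and the fibroblast list sit right of 0 in both panels at their medians, and the B-lineage list sits at a median of -4.19 in MSCs.

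Several complement genes respond to interferon-gamma and to the acute phase factors NF-kB and C/EBP, so target genes of these were examined. Of 14 interferon-gamma-inducible genes, 3 were at least 2-fold higher in KO MSCs (median 0.35), a share of 21.4% beside 19.3% of all genes, and 0 in KO CD8 T cells (median 0.25). Of 14 NF-kB and acute phase genes, 6 were at least 2-fold higher in KO MSCs (median 0.87), a share of 42.9%. In KO CD8 T cells 3 of them were at least 2-fold lower and 0 at least 2-fold higher (median -0.52). The 3 were Hp at -1.84, Lcn2 at -1.71 and Cebpb at -1.20. The granulocyte list was also lower on that array, with a median of -1.05. Whether granulocyte RNA has a part in these 3 values was not tested. The part of these factors in the members' values was not tested.

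Position in the genome was examined for the members that lie in clusters, a choice made after the values were seen. Gene order was taken from the RefSeq annotation of GRCm38.p6. C1ra, C1s1, C1rb and C1s2 follow each other, and their ratios in MSCs lay between 1.52 and 1.64. Of 8 flanking genes, 7 were measured in MSCs, with 0 past 2-fold toward KO and 2 toward Wt. C4b, C4a, Cfb and C2 lie in another cluster, interleaved with genes outside complement, and had ratios between 1.04 and 1.90 in MSCs. Of the 13 genes between and beside them, 11 were measured in MSCs, with 1 at least 2-fold higher (Cyp21a1, at 1.02) and 1 at least 2-fold lower (Zbtb12, at -1.28). Stk19, Dxo, Skiv2l and Nelfe, which lie between C4a and Cfb, had ratios of -0.56, -0.13, -0.52 and -0.73.

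Promoters are shown because Cfd went against the other members in the comparisons that use the Wt CD8 T cell array, though not in those that do not. RefSeq promoters of GRCm38.p6 matched 4 of the 7 members, C1ra, C3, C7 and Cfd, and each covers 300 bases around the start of the gene. The motifs searched, on both strands, were the interferon-gamma site GAS (TTCNNNGAA), the core of the interferon element ISRE (GAAANNGAA), kB (GGGANTTTC or GGAANTTCC), C/EBP (TTGCNNAA) and the TATA box (TATAAA). Over all 32544 distinct promoters, 8.33% held GAS, 8.53% the ISRE core, 1.95% kB, 10.8% C/EBP and 13.6% the TATA box. Capitals mark each match, 5' to 3' on the gene's strand.
C1ra, chr6:124512371-124512670, strand +: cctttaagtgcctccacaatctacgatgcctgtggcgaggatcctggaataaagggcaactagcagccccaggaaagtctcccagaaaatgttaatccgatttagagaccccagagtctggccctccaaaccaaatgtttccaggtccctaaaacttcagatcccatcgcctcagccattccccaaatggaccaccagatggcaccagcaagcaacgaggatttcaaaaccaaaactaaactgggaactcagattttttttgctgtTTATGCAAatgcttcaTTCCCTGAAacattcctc
C3, chr17:57228087-57228386, strand -: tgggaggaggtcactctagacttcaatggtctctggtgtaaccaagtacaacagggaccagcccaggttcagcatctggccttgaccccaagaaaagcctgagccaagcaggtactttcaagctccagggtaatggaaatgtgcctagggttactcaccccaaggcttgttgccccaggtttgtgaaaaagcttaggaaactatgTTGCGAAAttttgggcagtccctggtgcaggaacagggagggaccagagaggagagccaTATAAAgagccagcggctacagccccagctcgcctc
C7, chr15:5063724-5064023, strand -: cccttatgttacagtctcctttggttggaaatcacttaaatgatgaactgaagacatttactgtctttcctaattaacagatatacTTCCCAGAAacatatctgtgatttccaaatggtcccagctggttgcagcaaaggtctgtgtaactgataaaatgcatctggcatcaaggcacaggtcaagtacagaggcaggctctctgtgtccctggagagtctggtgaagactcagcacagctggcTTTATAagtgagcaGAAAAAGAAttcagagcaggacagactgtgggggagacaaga
Cfd, chr10:79890603-79890902, strand +: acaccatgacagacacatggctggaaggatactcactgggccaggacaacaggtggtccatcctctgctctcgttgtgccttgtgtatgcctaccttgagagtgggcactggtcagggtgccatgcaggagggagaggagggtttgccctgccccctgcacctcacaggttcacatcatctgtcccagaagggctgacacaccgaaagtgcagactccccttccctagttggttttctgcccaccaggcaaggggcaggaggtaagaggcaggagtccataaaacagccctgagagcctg
C1ra held GAS and, on the reverse strand, C/EBP. C3 held C/EBP and the TATA box. C7 held GAS, the ISRE core and, on the reverse strand, the TATA box, and the Cfd window held none of these letters. A match describes letters and not a bound factor.

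The genes closest to the members were ranked by the Euclidean distance between their 4 levels, each centred on its own mean, and the mean profile of the 6 measured members. That profile was -2.54 in Wt CD8 T cells, -1.35 in KO CD8 T cells, 1.44 in Wt MSCs and 2.45 in KO MSCs. The ranking took 14172 genes outside complement with a probe passing the flags on both MSC arrays, leaving out clone and predicted names. No flag was asked on the CD8 T cell arrays. Among these genes the nearest were Aoc1 at a distance of 0.19, Enpp2 at 0.21, Vipr2 and Rhbdl3 at 0.22 and Pcdhga9 at 0.23. Of the members, Cfb lay at 0.43 and C3 at 0.50, and C7 lay farthest at 2.54. Aoc1 was not well above background on either CD8 T cell array, nor Vipr2 and Rhbdl3 in Wt CD8 T cells, so their distances and ranks rest in part on signals that only bound a level. Enpp2 and Pcdhga9 were well above background on all 4 arrays.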

How the data were processed

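RNA from MSCs and CD8 T cells was read on 4 one-color arrays, with 62976 spots each. Per the file headers, the deposited spot intensity values are background-subtracted and detrended signals from Agilent Feature Extraction 12.0.3.1, while the submitters' processing notes name version 9.1. The authors' series matrix holds the same intensity multiplied by 1 constant per array (0.9413, 1.132, 1.1319 and 1.3418), with column medians of 25.5, 30.9, 41.0 and 52.0, whose basis is not given in the sources used here. Accessions were named through RefSeq, with 57.6% of spots receiving a symbol.

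From these, log2 signals minus each array's 75th percentile were computed. Spots of a probe were averaged, and a probe entered a comparison when each of its spots passed the methods' flags on both arrays (not saturated, spot and background uniform, signal significant and well above background). Probes of a gene were then averaged. A log2 ratio of at least 1 counted as 2-fold. No test was run, since each condition has 1 array.

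The members and gene lists were chosen with earlier results of these data known. Genes named are the members, complement genes at least 2-fold in a genotype comparison up to 6 a list, the paralogs C1rb and C4a, Sipa1, the 3 marker genes with the highest signal in each list in Wt MSCs, and the 5 genes nearest the members' profile; others named were singled out after their values were seen. Chromosomal neighbours were also added then. Some genes within the rule are counted but not reported here by name.

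Alternatives were a median shift, the percentile over probes well above background on all arrays, quantile normalization, the series matrix, normexp with offset 50 on median spot signals, weaker or no flags, the brightest probe and brighter genes only. A further alternative asked flags spot by spot. It was added after the values, and gene counts known from earlier work that this rule matches and the planned rule does not, had been seen. The planned rule was kept for the values reported. Calculations used Python 3.11.15, numpy 2.4.6, pandas 2.3.3, R 4.3.3 and limma 3.58.1. The shift and ratio steps were run on simulated arrays with large planted changes and every flag passing. That run did not exercise the flags, the bounds, dim probes or the alternative settings.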

Additional observations from a re-analysis of the deposited data

Results flagged for a closer look

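By bounds only, Cfd went opposite ways between genotypes in the cell types. The log2 bounds of KO over Wt were 1.04 in MSCs and -4.04 in CD8 T cells for the second probe (A_51_P156955), and 0.39 in MSCs and -3.16 in CD8 T cells for the first (A_55_P2744246). Each bound sets an array where the probe was well above background against one where it was not. The second probe carried the flag for uneven local background on the Wt CD8 T cell array. In KO MSCs the levels were -4.82 for the second probe and -5.47 for the first. The lowest level well above background on that array was -5.79. This contrast of MSCs with CD8 T cells was not tested, since there is 1 array per condition.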

How the results depend on the processing

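No paired analysis was run, since there is 1 array for each group and the labels give replicate number 1 only. The members' medians stayed above 0, and no measured value of a member changed sign except C7 in MSCs. Of 236 values of single members, 145 moved by no more than the spot noise of a ratio (0.064 log2 units) and 91 moved more. With the planned flags kept, the count of members at least 2-fold higher was 3 to 4 in MSCs, 4 to 5 in CD8 T cells, and for MSCs over CD8 T cells 5 to 6 in Wt and in KO tumors.

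Values that moved follow, in the order KO over Wt in MSCs, KO over Wt in CD8 T cells, MSCs over CD8 T cells in Wt and then in KO tumors. The members' medians were 1.01, 1.14, 3.98 and 4.24 with the median shift, and 1.36, 1.42, 4.66 and 4.99 with the series matrix. By construction these settings shift every gene of a comparison alike: the median of all genes moved by -0.14, -0.15, -0.23 and -0.22 with the median shift, and by 0.21, 0.13, 0.45 and 0.53 with the series matrix. Of all genes past 2-fold, the share that was higher was 63.0%, 65.5%, 57.4% and 54.0%. It became 54.0%, 52.5%, 45.5% and 42.9% with the median shift, and 74.1%, 76.3%, 76.6% and 76.2% with the series matrix. Genes at least 2-fold lower in MSCs than in CD8 T cells then numbered 1081 in Wt and 1357 in KO tumors, from 1820 and 2663. Quantile normalization gave medians of 1.38 in MSCs and 4.64 for the KO cell type comparison. The brightest probe gave 4.14 for the Wt cell type comparison.

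Normexp gave medians of 1.15 in CD8 T cells and 3.99 and 4.35 between cell types. All genes at least 2-fold higher then numbered 1827 in MSCs, from 2954, and 108 in CD8 T cells, from 381, with 98 lower, from 201. The share higher in CD8 T cells was 52.4%. The cause was not tested.

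With flags asked of 1 array, and with none, Cfd enters and the medians were 1.33, 1.17, 3.88 and 4.27. Each Cfd ratio then uses an array where Cfd is not well above background, so its entry supports no call of 2-fold beyond the bounds in the report. In CD8 T cells 681 genes were then higher and 371 lower with flags on 1 array, and 1059 and 633 with none. Between cell types 3897 and 4739 genes were higher with flags on 1 array, and 4185 and 5019 with none, from 2454 and 3125. The median of all genes in the KO cell type comparison moved by 0.12 with flags on 1 array.

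With genes above the median signal only, fewer genes were tested and C7 was left out. The medians were 1.26, 1.40, 4.54 and 4.66. Genes higher numbered 1308, 66, 859 and 1306, and genes lower 902, 70, 862 and 1378, from 1734 lower in MSCs. The share higher in CD8 T cells was 48.5%, and the median of all genes in MSCs moved by -0.13.

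Asking flags spot by spot, chosen after seeing the data, measured 15298 genes in MSCs in place of 15283 and 14339 in CD8 T cells in place of 14323. No result moved beyond the limits above. Signal over background limits Cfd to bounds, and C7 is dim.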
